A study of Mus musculus with 24 samples.

Results

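The early growth response (EGR) transcription factors Egr1, Egr2, Egr3 and Egr4 were followed in mouse cortex after ischemic stroke, across both cortex samples of each animal and across wild-type and ciRS-7 knockout animals. The members were taken by name, as the 4 rows with these symbols among 14769 genes listed in at least 1 of 4 expression tables. Egr1, Egr3 and Egr4 were listed in all 4 tables. Egr2 was listed in 3 of them and has no value in the comparison of PI KO with PI WT. In male mice aged 3 to 4 months the middle cerebral artery was blocked by a filament for 1 h (transient middle cerebral artery occlusion), and cortex was taken after 1 day of reperfusion. The animals were wild type (WT) or knockout (KO) for ciRS-7, the circular RNA also called Cdr1as. All 24 libraries carry the strain name C57BL/6N-Cdr1asem1Nikr, and the genotype label separates WT from KO. Crossing genotype with the marks CL and PI gave 4 groups of 6 libraries. The labels put these marks on the cortex samples and do not spell them out. The labels number the animals, so that a CL and a PI library come from the same mouse. All animals had the surgery, so no group shows EGR levels without stroke.

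EGR proteins are zinc finger transcription factors that bind GC-rich sites in promoters. Their genes are immediate early genes: calcium entry, growth factor signalling and synaptic activity switch them on within minutes, through the MAP kinase pathway, serum response factor with its ELK partners, and CREB, without new protein synthesis. In the forebrain Egr1 (also called Zif268, NGFI-A or Krox-24) is transcribed at a steady level that follows ongoing excitatory activity and serves as a marker of it. Egr3 takes part in later, more sustained responses, Egr2 (Krox-20) is best known for hindbrain patterning and Schwann cell myelination, and the proteins NAB1 and NAB2 bind EGR factors and repress them.

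The promoter sequences of Egr2 and Egr4 are shown because both members lay lower in PI than in CL cortex, and the promoter table matched only these 2 of the 4 members. Each is the 250 bases before an annotated transcription start (for Egr2, 1 of 5 listed), from RefSeq on GRCm38.p6, written in the direction of transcription and holding no exon of the gene. Capitals mark a CArG box, the site of serum response factor, and the short form TGACG of the cyclic AMP response element (CGTCA when read on the other strand), the site of CREB.
Egr2, chr10:67537619-67537868, plus strand: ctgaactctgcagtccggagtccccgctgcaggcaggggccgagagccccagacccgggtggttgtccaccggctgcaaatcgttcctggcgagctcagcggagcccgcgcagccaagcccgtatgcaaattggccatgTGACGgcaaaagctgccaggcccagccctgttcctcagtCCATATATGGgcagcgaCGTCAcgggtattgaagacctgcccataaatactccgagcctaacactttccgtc
Egr4, chr6:85513590-85513839, minus strand: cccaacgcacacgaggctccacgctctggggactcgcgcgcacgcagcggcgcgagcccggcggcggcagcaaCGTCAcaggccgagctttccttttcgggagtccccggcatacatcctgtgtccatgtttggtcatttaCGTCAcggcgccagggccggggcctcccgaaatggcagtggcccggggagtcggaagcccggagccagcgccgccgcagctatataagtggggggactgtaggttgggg
The Egr2 window holds 1 CArG box, CCATATATGG, from 72 to 63 bases before the start, with TGACG from 111 to 107 and CGTCA from 55 to 51 bases before it. The Egr4 window holds CGTCA from 177 to 173 and from 109 to 105 bases before the start, and no match to a CArG box. Both strands were searched, and no 2 of these matches overlap. Among 32851 promoter windows of the same length, 1.47% held a CArG box and 17.8% held TGACG on either strand. The full element TGACGTCA, present in 1.55% of windows, and the EGR site GCGNGGGCG, present in 4.7%, had no match in either sequence. These matches describe the letters and were not tested for binding. No sequence is shown for Egr1 and Egr3.

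In GENCODE M21 on GRCm38, Egr1 lies at chr18:34859823-34864984 on the plus strand, Egr2 at chr10:67535475-67542188 on the plus strand, Egr3 at chr14:70077203-70082614 on the plus strand and Egr4 at chr6:85511121-85513589 on the minus strand. The genes are protein coding, sit on 4 different chromosomes and overlap no other annotated gene.

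Levels are log2 CPM, the base 2 logarithm of read counts scaled to a common library total (counts per M reads), so that a difference of 1 is a doubling. Effective depth, read from the steps between low values, was 3.73 to 10.49 M reads (megareads) per library with a median of 6.91. The lowest of these, CL KO animal 6, is the least certain and may be too low by a factor of 2. Each table holds 2 groups and was scaled separately, which moved a member's group level by 0.024 to 0.035 (log2) between its 2 tables. In every gene and group of 6 the deposited values had the 2 lowest and the 2 highest libraries drawn in to a common value. The 4 inner values were recovered, the lowest and the highest library were not, and each group level is the mean of those 4 values. Differences were tested with a moderated trimmed-mean test built on limma's empirical Bayes step, and a gene was called at a Benjamini-Hochberg adjusted p under 0.05 over all genes of a table. Cdr1as was 3630 CPM in CL WT and 2740 CPM in PI WT, while its recoverable KO values reached at most 0.148 and 0.169 CPM, below the 3 reads set as the limit of detection. All 5 excitatory neuron markers were listed in every table, and 3 of 5 striatum markers were listed as well.

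Egr1 was the most abundant and Egr2 the least abundant member in each of the 4 groups when levels were expressed per kilobase of exon. In CL WT cortex Egr1 stood at 18.7 CPM per kilobase, Egr4 at 3.36, Egr3 at 3.02 and Egr2 at 0.747. In PI WT cortex the corresponding values were 8.88 for Egr1, 1.9 for Egr3, 1.76 for Egr4 and 0.366 for Egr2. The neighbours Egr3 and Egr4 were close: the gap was 0.15 (log2, SE 0.13) in CL WT and 0.11 (SE 0.18) in PI WT, with Egr4 above Egr3 in the former and below it in the latter. In KO animals the values were 26.4 (CL) and 11.6 (PI) for Egr1, 1.56 and 0.39 for Egr2, 3.45 and 1.96 for Egr3, and 5.38 and 2.32 for Egr4. In CL KO, Egr4 lay above Egr3 by 0.64 (SE 0.25), and in PI KO by 0.24 (SE 0.51), less than the error of that gap. The remaining gaps between neighbours ran from 1.15 to 2.48 on the log2 scale, each more than 3 times its error. Egr2 rested on few reads, 6.26 to 66.7 per library, against 168 to 1230 for Egr1.

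**Figure D1:**
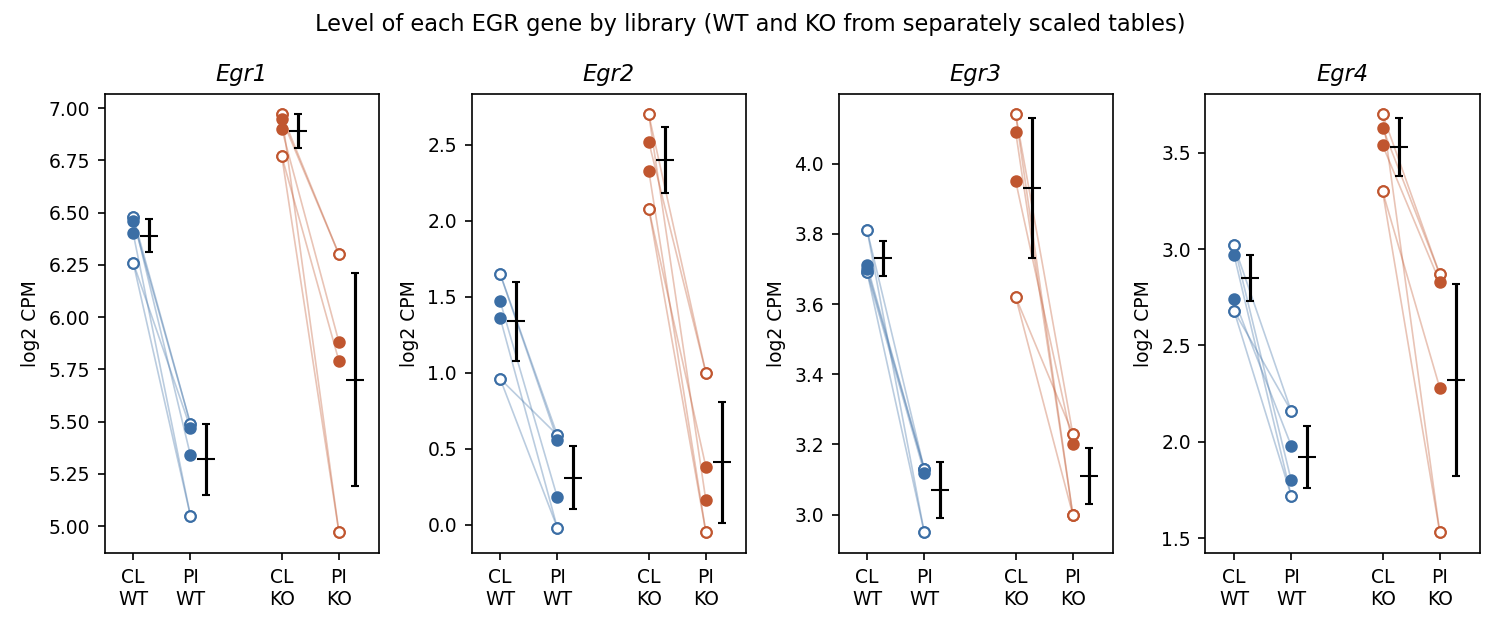
Level of Egr1, Egr2, Egr3 and Egr4 (y axis, log2 CPM) in each of the 24 libraries, by group (x axis), with lines joining the CL and PI libraries of an animal. Open points are the deposited values that were drawn in to a common value (2 libraries each, with no jitter), filled points are untouched, and the black bar is the trimmed mean with its SE (n = 6 libraries per group). The CL and PI points of each genotype do not overlap for any member, so that every line must run downward, and the PI KO libraries spread most widely for Egr1 and Egr4.

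In wild-type animals the EGR genes were lower in PI than in CL cortex of the same mice, by factors between 1.59 and 2.11. Egr1, Egr3 and Egr4 fell in the test across 14489 genes, and Egr2 differed by slightly less than Egr1, with a wider interval. Thus 3 of 4 members were called lower, where 5.40% of all genes were, and the members' median difference was -0.98 (log2) beside 0.01 for all genes. For all 4 members the recoverable values of PI lay below those of CL, which was so for 13.1% of genes in the table. In bulk tissue, fewer cells of a type and less RNA per cell cannot be told apart.

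For Egr1, the inner CL WT values ran from 74.5 to 89.8 CPM with a median of 86.1, and the inner PI WT values from 31.0 to 45.2 CPM with a median of 42.4. The highest recoverable PI library was thus well below the lowest recoverable CL library. Egr1 fell by 1.08 (log2, SE 0.14, 95% interval -1.38 to -0.77, adjusted p = 0.00048, limma-moderated trimmed-mean test). Egr3 ran from 12.8 to 14.4 CPM in CL WT (median 13.0) and from 7.41 to 8.76 CPM in PI WT (median 8.73), groups without overlap and narrow in both. It fell by 0.67 (SE 0.11, interval -0.91 to -0.42, adjusted p = 0.00251, same test), the smallest difference of the family. Egr4 ran from 6.34 to 8.2 CPM in CL WT (median 7.23) and from 3.23 to 4.65 CPM in PI WT (median 3.7), again without overlap. Egr4 fell by 0.93 (SE 0.19, interval -1.33 to -0.53, adjusted p = 0.00659, same test). Egr2, the member with the fewest reads, ran from 1.77 to 3.28 CPM in CL WT (median 2.67) and from 0.946 to 1.52 CPM in PI WT (median 1.29). Its difference was -1.03 (SE 0.33, interval -1.75 to -0.31) with an adjusted p of 0.07 in the same test, so that it was not called although the recoverable values did not overlap. Adding 2 CPM to each value before the logarithm, which compresses low levels, brought the Egr2 difference to -0.49. Within animals, PI lay below CL on the deposited values by 0.79 to 1.35 for Egr1, 0.37 to 1.38 for Egr2, 0.56 to 0.86 for Egr3 and 0.53 to 1.25 for Egr4 (log2). The direction in each animal is fixed by the groups not overlapping once their tails are drawn in, and the outer animals carry tied values, so these ranges describe size only. With the animal as a block, Egr2 was called in the trimmed-mean test for dependent groups (adjusted p = 0.0336) and not in a more conservative version with the prior of the unpaired test, added after the values were seen (adjusted p = 0.0889).

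In ciRS-7 knockout animals the same direction was measured for all 4 members, by factors between 1.76 and 3.99. Egr2 and Egr3 fell in the test across 14338 genes, whereas Egr1 and Egr4 missed the threshold with differences larger than those in WT. The count was 2 of 4 called lower, where 4.94% of all genes were, and the members' median difference was -1.2 (log2) beside 0.0 for all genes. Again the recoverable PI values of all 4 members lay below those of CL, as was so for 13.4% of genes in the table.

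Egr2 showed the largest difference of the family in these mice. It ran from 3.99 to 6.75 CPM in CL KO (median 5.38) and from 0.921 to 2.31 CPM in PI KO (median 1.21), and fell by 2.0 (log2, SE 0.37, interval -2.8 to -1.2, adjusted p = 0.00504, limma-moderated trimmed-mean test). Egr3 ran from 11.4 to 17.8 CPM in CL KO (median 16.2) and from 7.97 to 9.49 CPM in PI KO (median 8.59), and fell by 0.82 (SE 0.18, interval -1.2 to -0.44, adjusted p = 0.0116, same test). Here the CL group was the more variable of the pair, with animals 1 and 2 holding the 2 lowest values. With 2 CPM added, the Egr2 difference was -1.12 and that of Egr3 -0.7, both still called. Egr1 ran from 105 to 127 CPM in CL KO (median 122) and from 25.9 to 87.3 CPM in PI KO (median 57.0). The difference was -1.19 (SE 0.36, interval -1.97 to -0.41, adjusted p = 0.056, same test), with an error more than double that in WT. Egr4 also had widely spread PI values: CL KO ran from 9.3 to 13.3 CPM (median 12.0), PI KO from 2.42 to 7.39 CPM (median 5.89), and the difference was -1.21 (SE 0.38, interval -2.03 to -0.39, adjusted p = 0.0623, same test). Within KO animals PI lay below CL, with the same restriction on the deposited values, by 0.64 to 2.01 for Egr1, 1.52 to 2.54 for Egr2, 0.39 to 1.13 for Egr3 and 0.71 to 2.18 for Egr4 (log2). With the animal as a block and the more conservative version of the test, all 4 members were called lower. Egr1 had an adjusted p of 0.033 and Egr4 of 0.0397, and 1096 of 14338 genes were called in either direction. The test for dependent groups with its own prior called all 4 as well, among 2154 genes in either direction. That test also called 85 genes between the CL genotypes, where the numbers join no animals.

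The spread of Egr1 and Egr4 in PI KO cortex followed the same animals. Animals 1 and 6 held the 2 lowest values of both genes and animals 3 and 4 the 2 highest. The trimmed mean of Egr1 had an SE of 0.51 in PI KO against 0.17 in PI WT and 0.08 in each CL group, and that of Egr4 0.5 against 0.16 in PI WT. Egr2 shared the high pair, animals 3 and 4, while its low pair was animals 1 and 2. Egr3 did not share this pattern, with animals 1 and 5 highest and an SE of 0.08. Of other immediate early genes, Arc, Nr4a1, Nr4a2, Nr4a3, Fos and Fosl2 also had their 2 lowest PI KO values in animals 1 and 6. Jun, Junb, Dusp1, Btg2, Ier5 and Klf4 did not. The low pair was thus not particular to the EGR genes. The summed level of the 3 listed striatum markers (Drd1, Ppp1r1b and Rgs9) was also highest in PI KO animals 1 and 6, at 86.6 and 88.5 CPM against 61.6 to 70.5 CPM in the other 4. In PI WT the 2 lowest Egr1 values were in animals 3 and 6, with striatum sums of 69.1 and 91.1 CPM. For Egr4 they were in animals 4 and 5, at 88.3 and 79.3 CPM, and the PI WT range was 68.9 to 91.1 CPM. The part of the striatum markers in the EGR values was not tested. The 5 excitatory neuron markers summed to between 1300 and 1440 CPM in the 6 PI KO libraries.

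Summed levels of several cell type markers differed between the sides as well. The sums add deposited values, whose drawn-in tails narrow the ranges and make an overlap less likely. The 5 neuron markers (Rbfox3, Tubb3, Map2, Snap25, Syt1) summed to 6170 to 6780 CPM in PI WT and 7200 to 7730 CPM in CL WT, and to 5970 to 6570 CPM in PI KO and 7050 to 7470 CPM in CL KO. The ratio of medians was -0.23 (log2) in WT and -0.18 in KO, and 2 of the 5 were called lower in each genotype. Of all genes, 5.40% were called lower and 5.20% higher in WT, and 4.94% and 5.11% in KO. For the 5 excitatory neuron markers the ratio was -0.28 in WT and -0.39 in KO, with 1370 to 1500 CPM in PI WT against 1640 to 1750 CPM in CL WT, and 1700 to 1840 CPM in CL KO. The 3 listed striatum markers summed higher in PI, to 68.9 to 91.1 CPM against 52.0 to 63.7 CPM in WT, and 61.6 to 88.5 against 49.7 to 60.0 CPM in KO. Their median difference per gene was 0.08 (log2) in WT and 0.26 in KO. Of these 3 genes, 1 was called higher in WT and 0 in KO. None of the 6 neutrophil and monocyte markers was listed in either table of PI and CL. The summed level of the 5 astrocyte markers was lower in PI (ratio -0.24 in WT and -0.18 in KO, no overlap in either). The astrocyte genes were split, with 3 of 5 lower and 2 higher in each genotype. In WT 2 of them were called lower and 1 higher, and in KO 1 in each direction. The 5 oligodendrocyte markers summed to a ratio of -0.53 in WT (no overlap) and -0.26 in KO, with 4 of 5 lower in each. The sum of the 5 interneuron markers went the other way, at 0.14 in WT and 0.11 in KO, the latter without overlap. In each genotype 3 of these genes were higher and 2 lower, with 0 called in WT and 1 called higher in KO. The EGR medians of -0.98 in WT and -1.2 in KO are medians of differences per gene, a measure unlike these ratios of sums. By that measure the neuron markers stood at -0.25 in WT and -0.21 in KO, and the excitatory neuron markers at -0.12 and -0.24. The astrocyte markers stood at -0.18 and -0.11, the oligodendrocyte markers at -0.36 and -0.13, and the interneuron markers at 0.11 and 0.06. The part of these markers in the EGR differences was not tested.

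**Figure D2:**
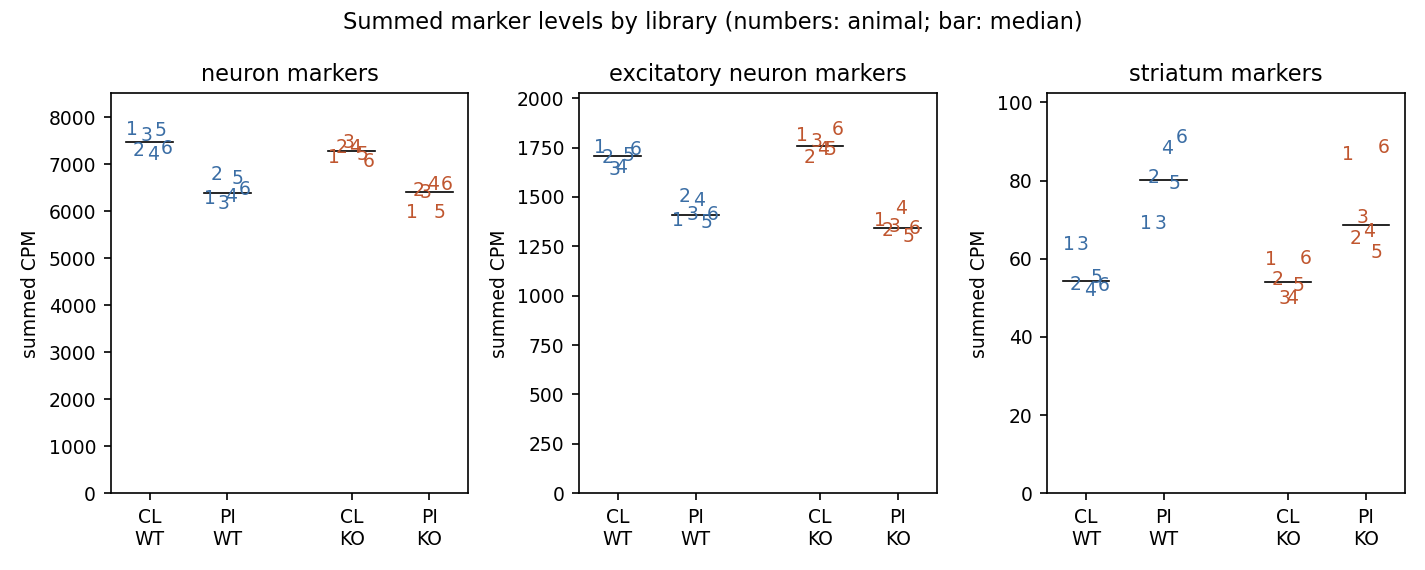
Summed level (y axis, CPM, starting at 0) of the neuron markers (5 genes), excitatory neuron markers (5 genes) and striatum markers (3 listed genes) in each library, by group (x axis). Digits are animal numbers and bars are group medians. Both neuronal sums are lower and the striatal sum higher in PI, and PI KO animals 1 and 6 have the highest striatal sums of their group.

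Whether the loss of ciRS-7 went with another EGR level was compared within each side. In CL cortex all 4 members were higher in KO than in WT, with Egr1 at 1.42 times, Egr2 at 2.09 times, Egr3 at 1.15 times and Egr4 at 1.61 times the WT level, but 0 of 4 were called at an adjusted p under 0.05, where 0.0279% of 14323 genes were. At an unadjusted p under 0.05, 3 of 4 members were higher, against 3.16% of all genes. The members' median difference was 0.6 (log2) beside 0.0 for all genes.

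Egr1 in CL cortex ran from 72.6 to 87.8 CPM in WT (median 84.0) and from 104 to 124 CPM in KO (median 119), with no overlap of recoverable values. The difference was 0.51 (SE 0.09, interval 0.31 to 0.71, unadjusted p = 0.00011, adjusted p = 0.197, limma-moderated trimmed-mean test), which ranked Egr1 8 among all genes by p. Egr4 ran from 6.18 to 8.02 CPM in WT (median 7.06) and from 9.13 to 13.0 CPM in KO (median 11.8), also without overlap. Its difference was 0.69 (SE 0.17, interval 0.33 to 1.04, adjusted p = 0.488, same test). Egr2 ran from 1.73 to 3.21 CPM in WT (median 2.61) and from 3.91 to 6.62 CPM in KO (median 5.28), without overlap, and differed by 1.06 (SE 0.28, interval 0.45 to 1.68, adjusted p = 0.596, same test), or by 0.68 with 2 CPM added. Recoverable values that were all higher in KO, as in these 3 members, were found in 4.35% of genes. Egr3 overlapped, with 12.5 to 14.1 CPM in WT (median 12.7) and 11.2 to 17.5 CPM in KO (median 15.9), and differed by 0.20 (SE 0.16, interval -0.15 to 0.55, adjusted p = 0.933, same test). The excitatory neuron markers summed to 1670 to 1810 CPM in CL KO and 1600 to 1710 CPM in CL WT, and the microglia markers to 156 to 169 and 147 to 158 CPM. Their part in the EGR values was not tested.

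In PI cortex 0 of the 3 listed members were called between genotypes, where 0.0208% of 14452 genes were, and 0 of 3 had an unadjusted p under 0.05, against 5.75% of all genes. Egr1 ran from 31.7 to 46.0 CPM in WT (median 43.0) and from 26.4 to 89.3 CPM in KO (median 58.4), so that the KO libraries lay on both sides of the WT range. The difference was 0.40 (SE 0.38, interval -0.43 to 1.22, adjusted p = 0.91, limma-moderated trimmed-mean test). Egr4 ran from 3.26 to 4.73 CPM in WT (median 3.78) and from 2.47 to 7.55 CPM in KO (median 6.03), with a difference of 0.40 (SE 0.40, interval -0.46 to 1.27, adjusted p = 0.91, same test). Both intervals include a doubling and no difference. Egr3 was the most tightly measured member here, at 7.55 to 8.92 CPM in WT (median 8.86) and 8.16 to 9.72 CPM in KO (median 8.8). It differed by 0.05 (SE 0.13, interval -0.23 to 0.34, adjusted p = 0.972, same test).

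The difference between the genotypes in the PI minus CL difference was then tested directly over the 14211 genes listed for both genotypes. None of the 4 members was called, and 0 genes were in the whole table (0%), with 646 genes, or 4.55%, at an unadjusted p under 0.05. Egr2 had the largest estimate, -0.97 (log2, SE 0.52, interval -2.05 to 0.11, unadjusted p = 0.0764, adjusted p = 0.992, limma-moderated trimmed-mean test), that is, a larger PI deficit in KO. With the animal as a block its SE was 0.43. The trimmed-mean test for dependent groups then gave an unadjusted p of 0.0377 (adjusted p = 0.871). The version with the unpaired prior gave 0.0432 (adjusted p = 0.944). The estimates of Egr1 (-0.11, interval -1.03 to 0.81), Egr3 (-0.15, interval -0.6 to 0.3) and Egr4 (-0.28, interval -1.25 to 0.69) were smaller than their errors. The calls of Egr1 and Egr4 in WT alone, and of Egr2 in KO alone, are therefore not shown to be a difference between genotypes.

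Few inducers of EGR genes were called between PI and CL cortex, and the 1 call higher, in WT, was near the share of all genes. Of 18 listed genes of the MAP kinase, CREB and serum response factor pathways, 1 was called higher and 2 lower in WT, and 0 and 2 in KO (all genes: 5.20% higher and 5.40% lower in WT, 5.11% and 4.94% in KO). The genes that fell were the same in both genotypes: Camk4, a calcium-dependent kinase of CREB in neurons, by 0.91 (SE 0.07, adjusted p = 6.75e-06) in WT and 0.78 (SE 0.06, adjusted p = 1.99e-05) in KO, and Rps6ka5 (MSK1), a kinase of CREB and histone H3, by 0.45 and 0.47. Elk1, a partner of serum response factor, rose by 0.30 in WT (adjusted p = 0.0457) and was 0.13 higher in KO (adjusted p = 0.52). Elk3, of the same family, was higher by 0.77 (SE 0.25, adjusted p = 0.0743) in WT and 0.78 (SE 0.26, adjusted p = 0.0737) in KO without overlap in either, and was not called. Srf itself differed by 0.19 (SE 0.12) in WT and 0.10 (SE 0.11) in KO and was not called. Between genotypes 0 of 18 were called on either side; in CL cortex Mapk3 (ERK1) was 0.34 higher in KO (unadjusted p = 0.00526) and Srf 0.32 higher (unadjusted p = 0.0219, limma-moderated trimmed-mean test for both).

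Among the 6 EGR cofactors, the NAB corepressors included, 0 were called in any of the 5 comparisons, a count that the shares of all genes called (5.40% lower and 5.20% higher between PI and CL in WT, 4.94% and 5.11% in KO) do not set apart from other genes. Nab1 differed by -0.07 in WT and -0.07 in KO between PI and CL, and Nab2, itself a known EGR target, by -0.17 (SE 0.14) and -0.24 (SE 0.14). Of 4 listed factors that bind related GC-rich sites, Klf9 fell in WT by 0.23 (adjusted p = 0.0106), and none was called in KO, where 5.40% and 4.94% of all genes were called lower.

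Genes known as EGR targets were followed in 2 lists, for neurons and for injured tissue. Of 9 listed genes tied to EGR factors in neurons, 5 were called lower and 1 higher in WT, and 4 lower and 0 higher in KO (all genes: 5.40% lower and 5.20% higher in WT, 4.94% and 5.11% in KO). Their median was -0.21 in WT and -0.24 in KO, beside 0.01 and 0.0 for all genes. By the same measure the neuron markers stood at -0.25 and -0.21, and the excitatory neuron markers at -0.12 and -0.24. The target list was thus not set apart from neuronal genes by its median. Nab2 is counted here and among the cofactors. Homer1, a postsynaptic scaffold gene with an activity-induced short form, fell by 0.62 (SE 0.05, adjusted p = 1.68e-05) in WT and 0.60 (SE 0.11, adjusted p = 0.00525) in KO. Syn1, a synaptic vesicle protein gene, fell by 0.23 and 0.33, and Gabra4, a GABA-A receptor subunit, by 0.32 and 0.20. Syn2, the related vesicle protein gene, rose by 0.31 in WT. Bdnf, a neurotrophin gene, was higher by 0.23 in WT and 0.52 in KO without a call (adjusted p = 0.496 and 0.0826). Arc, the activity-regulated synaptic gene, fell by 0.69 in WT (SE 0.16, adjusted p = 0.0134) and stood at -0.50 in KO without a call (SE 0.29, adjusted p = 0.315). Of the genes tied to Egr1 in injured tissue and vessels, 5 of 9 listed were called higher in WT and 4 of 8 in KO, beside 5.20% and 5.11% of all genes, with none called lower. Icam1, an endothelial adhesion molecule, rose by 1.83 (SE 0.42) in WT and 1.44 (SE 0.42) in KO, Cdkn1a, the cell cycle inhibitor p21, by 0.81 and 1.18, and Ptgs2, cyclooxygenase-2, by 0.49 and 0.69. Pdgfa, a growth factor gene of this list, was at -0.29 in KO without a call (adjusted p = 0.0662). Ccl2, a monocyte chemokine, was at least 7.37-fold higher in PI WT, because its recoverable CL WT values were all under the limit of 3 reads. Regulation of any of these genes by EGR factors was not tested.

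Other immediate early genes were called in both directions between PI and CL cortex. Of 16 listed genes, 5 were called lower and 2 higher in PI WT against CL WT, and 4 lower and 1 higher in KO (all genes: 5.40% lower and 5.20% higher in WT, 4.94% and 5.11% in KO), with a median of -0.41 and -0.37. Arc, called lower in WT, is counted here and among the neuronal EGR targets. The orphan receptors Nr4a2 and Nr4a1 fell with the EGR genes, Nr4a2 by 1.56 (SE 0.14) in WT and 1.24 (SE 0.32) in KO, and Nr4a1 by 0.85 (SE 0.15) and 1.14 (SE 0.24). Jun rose by 0.43 (SE 0.08) in WT and 0.42 (SE 0.09) in KO, and Ier5 by 0.30 in WT. Fos was not called in either, at -0.26 (SE 0.19) and -0.40 (SE 0.22). Between genotypes in CL cortex, 15 of 16 were higher in KO as the EGR genes were, 0 were called, and 12 had an unadjusted p under 0.05, against 3.16% of all genes. The smallest p were those of Fos, at 0.77 (SE 0.19, adjusted p = 0.49), and Arc, at 0.61 (SE 0.16, adjusted p = 0.564, limma-moderated trimmed-mean test for both). In PI cortex 12 of 16 were higher in KO, 0 were called and 5 had an unadjusted p under 0.05, against 2.80% of genes called higher at that level. This list was chosen with earlier results of these libraries known and is not independent evidence of its direction.

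**Figure D3:**
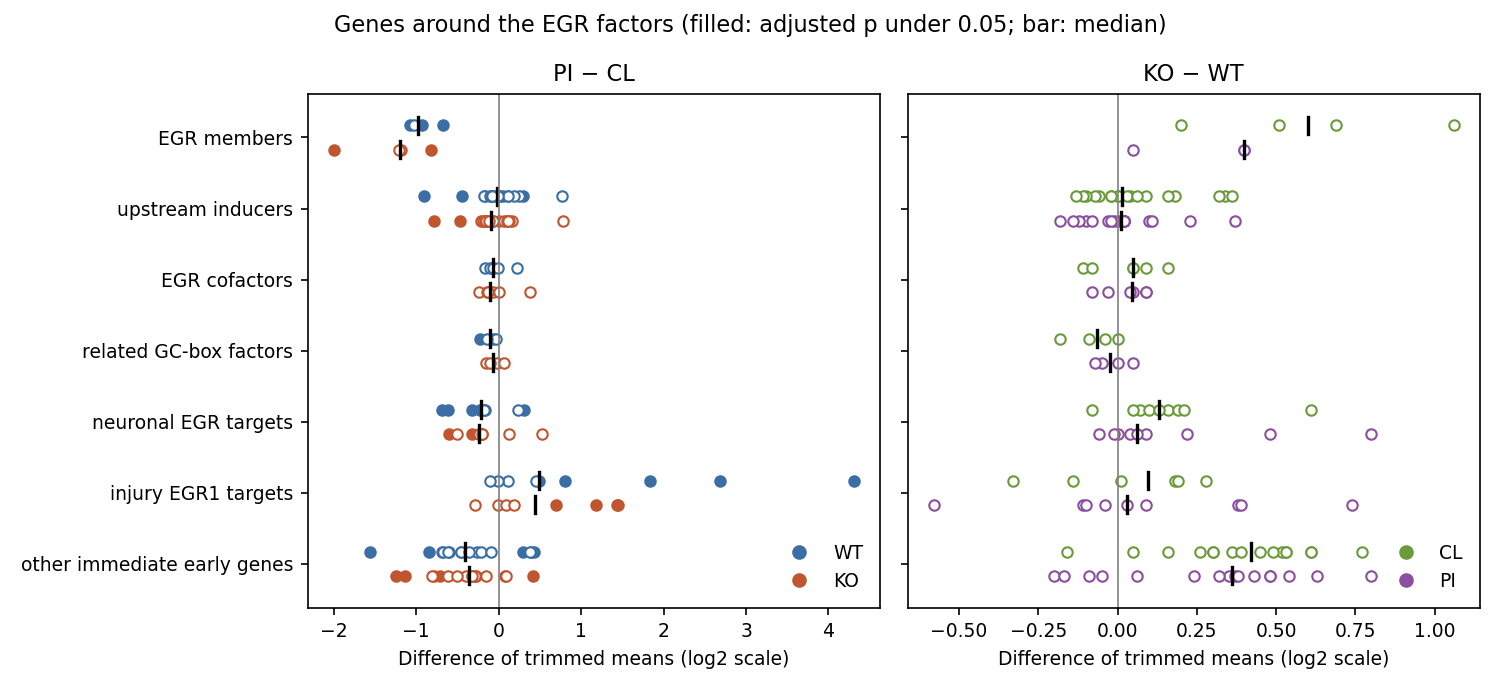
Difference of trimmed means (x axis, log2 scale) of the EGR genes and of 6 lists of related genes (y axis), for PI minus CL in WT and KO (left) and KO minus WT in CL and PI (right). Each point is a gene, filled where the adjusted p was under 0.05, and black bars are list medians; the rightmost point of the injury list is Ccl2 in WT, whose CL values were under the limit of detection. The EGR median lies farthest to the left among the lists in PI minus CL, and no point is filled in KO minus WT.

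Across libraries the EGR genes tracked each other unequally. Pearson's r over the 12 libraries of a table, averaged over tables, was 0.93 for Egr1 with Egr4, 0.89 for Egr1 with Egr2 (3 tables) and 0.86 for Egr2 with Egr4 (3 tables). Egr3 followed the others less closely, with 0.64 for Egr1 (0.12 to 0.95 over the 4 tables), 0.62 for Egr4 and 0.77 for Egr2. Among 11631 other genes with a mean of at least 2 log2 CPM in each table, those most like Egr1 were R3hdm2 (0.91), Palmd (0.91) and Homer1 (0.90). For Egr4 they were R3hdm2 (0.89), Plxnc1 (0.87) and Msl1 (0.87), and for Egr2 they were Nr4a3 (0.92), Dcaf6 (0.91) and Homer1 (0.90). The closest to Egr3 were Jade2 (0.84), Ptch1 (0.80) and Ilrun (0.77). These correlations describe drawn-in values in tables that share libraries, and they include the difference between the 2 groups of each table. The genes most like Egr1 and Egr4 differed by less than those members did: R3hdm2 fell by 0.23 in WT and 0.43 in KO between PI and CL.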

How the data were processed

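Total RNA of 24 cortex samples was depleted of ribosomal RNA and sequenced; samples were grouped by their titles. The deposited values are log2 CPM in 4 tables, 1 per pair of groups, per the file headers. The build is mm10, per the submitters' processing notes; the aligner, counting, filters and use of strand are not given in the sources used here. All 12 columns of each table matched a sample (0 unused columns). No source records why the 2 lowest and 2 highest values of each group of 6 are tied. They equal 0.75 times the second value plus 0.25 times the third from that end, which gave back the second value: 80.6% to 88.0% of low tied values per group were whole reads after recovery (tolerance 0.03 read, for either tied library) and 10.1% to 13.8% as deposited. A count test was not run, since the outermost values are lost.

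Group means of the 4 inner values, with the Winsorized sum of squares and 6 degrees of freedom (12 for the interaction), went through empirical Bayes moderation with a mean-dependent prior (limma 3.58.1, R 4.3.3), two-sided, adjusted by Benjamini-Hochberg. On simulated data for PI WT and CL WT (14489 genes, normal errors) 0 genes were called with none changed, where limma on drawn-in values called 2031, and 57.7%, 87.1% and 96.5% of 200 genes changed by 0.5, 1 and 2 (log2) were called. The labels tie the CL and PI libraries of a number to 1 animal; same-numbered libraries had a median correlation of deviations of 0.11 in WT (-0.04 to 0.25) and 0.12 in KO (-0.04 to 0.23), against -0.03 and -0.01 for other pairs. Nothing in the labels pairs WT with KO animals. The design gives 6 biological replicates per group.

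The members, lists and tests were chosen with earlier results of these data known. Genes named are the members, Nab1, Nab2, Arc and Srf, the list genes with the smallest p (up to 3 called per direction, otherwise 2), the 3 genes most like each member, and Cdr1as; not every gene so chosen is reported here, and Drd1, Rgs9, Icam1 and other list or marker genes were named after their values were seen. Lists are described by counts, with no set test. Alternatives were limma on the deposited values, the animal or number as a block, no trend, 2 other centrings, a filter at 1 log2 CPM and pseudocounts of 0.5 and 2 CPM.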

Additional observations from a re-analysis of the deposited data

How the results depend on the processing

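Over 10 other settings, 1 of them added after the values were seen, no EGR difference turned its direction; 164 member results kept their side of the threshold, 25 gained a call and 0 lost one. Centring on the median gene, centring on the median gene of mean at least 5, and a pseudocount of 0.5 changed no EGR call. The 3 WT calls and the 2 KO calls between PI and CL held under all 10 settings. In KO all 4 members were called with a pseudocount of 2, with limma on the deposited values and in each of the 3 fits with the replicate block. Of 14338 genes in KO, the pseudocount called 1478, limma 6666, and the 3 fits with the block 1096, 2154 and 6759. A filter at a mean of 1 log2 CPM added Egr1, and that filter leaves out Egr2 in WT. Egr2 in WT gained its call with limma on the deposited values, with and without the replicate block, and in the trimmed-mean test for dependent groups.

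Counts over all genes depended on how the drawn-in values were treated. With limma on the deposited values 6459 genes passed in WT, 6666 in KO, 2388 between genotypes in PI, 2311 in CL and 1940 for the interaction, with 3 EGR genes in CL and 1 (Egr2) for the interaction. On simulated data it called 2031 genes where none had changed. With the replicate block added to limma on the deposited values, the counts were 6614, 6759, 1800, 1868 and 2216, with 3 EGR genes in CL and 1 for the interaction. Without a trend, the calls between PI and CL numbered 1015 for WT and 739 for KO. The replicate block in the trimmed-mean test for dependent groups called 1 gene for the interaction, and 6 genes in PI and 85 in CL (among them 3 EGR genes) between genotypes; in the genotype comparisons the numbers join no animals, and same-numbered correlations ran from -0.16 to 0.16. Between genotypes, 1 of 6 (PI) and 2 of 6 (CL) libraries correlated best with their own number. With the unpaired prior, the version added later, 0 EGR genes were called between genotypes. The cause of the other changes was not tested. Among other named genes, 1184 results kept their side, 108 gained and 24 lost a call.

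Depth limits Egr2 most: 3 reads, the limit for a gene with none, are 0.286 to 0.804 CPM. Samples beyond the 4 inner values of a group cannot be checked for outliers.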

Other observations

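Pmp22, a peripheral myelin gene that Egr2 activates in Schwann cells, was the only 1 of 3 Schwann cell markers listed. It was called higher in PI than in CL cortex, at 0.48 (log2, SE 0.14, adjusted p = 0.042) in WT and 0.55 (SE 0.13, adjusted p = 0.0229) in KO (limma-moderated trimmed-mean test), while Egr2 was lower there. The 5 oligodendrocyte markers, of central myelin, summed to 1370 to 1970 CPM in PI WT against 2000 to 2180 CPM in CL WT, and to 1520 to 1730 against 1600 to 2160 CPM in KO, with 0 of 5 called in either genotype.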
